A study of Mus musculus with 4 samples.

Results

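Single gastric corpus cells that held the transcripts of both chief cells and mucous neck cells are described here and are called chief-neck cells. A cell was counted as one when Chia1 and Cblif together gave at least 50 of every 10000 UMIs (counted RNA molecules), Muc6 and Gkn3 together gave at least 5 of every 10000 and at least 2 UMIs, and the acid pump genes Atp4a and Atp4b together stayed under 50 of every 10000. By this rule 615 of 38732 cells, or 1.59%, were chief-neck cells. Of these, 288 came from untreated mice, 38 from mice at day 1 after L635, 160 from mice at day 3 after L635 with AREG and 129 from mice at day 3 after L635.

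The animals were C57BL6/J wild type mice aged 6 to 7 weeks. The stomach corpus, the acid-secreting body of the organ, was dissociated and its epithelial cells were captured with the PIPseq T20 3' method. A single oral dose of 350 mg/kg of L635, which is toxic to parietal cells, was used to injure the gland, and the untreated mice received PBS. AREG stands for amphiregulin, which binds and activates EGFR, and neither its dose nor its route is given in the sources used here. Each group was measured in 1 library, which leaves every difference without replicates and without a p-value. Intervals are 95% and cover counting error only.

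Chief cells sit at the base of the corpus gland and secrete digestive enzymes, while mucous neck cells sit higher up and secrete the gland mucin Muc6 with the small secreted proteins Tff2 and Gkn3. In mice, neck cells are held to mature into chief cells, and chief cells that lose their neighbouring parietal cells can turn neck genes on again, a state called spasmolytic polypeptide-expressing metaplasia. Chia1 is a chitinase and Cblif is gastric intrinsic factor, the vitamin B12 carrier that mouse chief cells make.

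The 4 genes of the rule are shown by the 250 bases before their transcription start, 5′ to 3′ on the gene's own strand, because they define the cells. The sequences are those of RefSeq for GRCm38.p6, matched by symbol for 4 of 4 genes, whereas the counts were made on mm39. The Chia1 window is chr3:106113132-106113381 (plus strand), the Cblif window chr19:11747309-11747558 (plus strand), the Muc6 window chr7:141655394-141655643 (minus strand) and the Gkn3 window chr6:87388936-87389185 (minus strand). Capitals mark the letters TATAAA.
Chia1: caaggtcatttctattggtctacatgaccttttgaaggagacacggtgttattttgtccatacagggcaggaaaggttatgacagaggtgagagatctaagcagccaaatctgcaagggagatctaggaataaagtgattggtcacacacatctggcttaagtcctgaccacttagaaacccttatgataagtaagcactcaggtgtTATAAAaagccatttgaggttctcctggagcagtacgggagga
Cblif: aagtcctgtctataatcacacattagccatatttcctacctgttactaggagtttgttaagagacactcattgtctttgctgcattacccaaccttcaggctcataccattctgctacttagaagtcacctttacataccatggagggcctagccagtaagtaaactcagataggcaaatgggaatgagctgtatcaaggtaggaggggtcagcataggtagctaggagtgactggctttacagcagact
Muc6: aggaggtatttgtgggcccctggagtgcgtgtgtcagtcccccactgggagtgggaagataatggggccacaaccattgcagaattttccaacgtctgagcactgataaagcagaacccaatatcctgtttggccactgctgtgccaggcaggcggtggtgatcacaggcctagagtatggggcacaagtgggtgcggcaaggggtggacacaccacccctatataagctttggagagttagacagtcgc
Gkn3: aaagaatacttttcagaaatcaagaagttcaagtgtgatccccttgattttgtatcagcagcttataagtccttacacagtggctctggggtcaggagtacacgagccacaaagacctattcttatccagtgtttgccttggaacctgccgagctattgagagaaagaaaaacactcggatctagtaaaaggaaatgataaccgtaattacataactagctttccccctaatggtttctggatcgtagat
TATAAA was searched on both strands and was found once, in the Chia1 window, with its first base 43 bases before the start, and 12.4% of 32851 windows of the same length held it. The E-box letters CAGCTG, also searched on both strands, were in none of the 4 windows and in 13.0% of all windows.

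**Figure D1:**
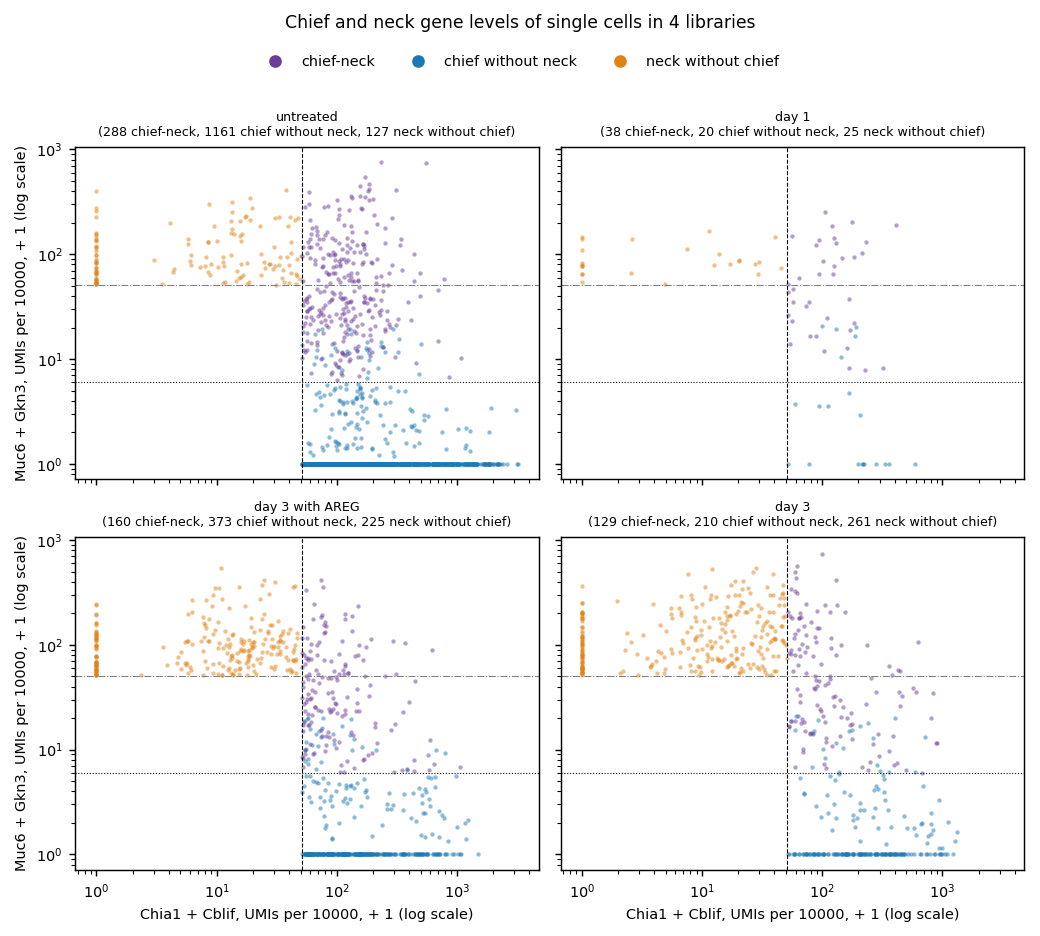
Each point is 1 cell, placed by its Chia1 + Cblif level (x) and its Muc6 + Gkn3 level (y), in UMIs per 10000 plus 1 on log axes, for the 4 libraries. The dashed line is the chief limit of 50, the dotted line the neck limit of 5 and the dash-dotted line the limit of 50 used for neck cells without chief genes. Chief cells without neck genes above the dotted line had 1 neck UMI. The chief-neck cells form a band with no gap to either neighbour, 288 in untreated mice, 38 at day 1, 160 at day 3 with AREG and 129 at day 3.

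The cells were chosen by their Chia1, Cblif, Muc6, Gkn3, Atp4a and Atp4b levels, whose values are therefore a description. The summed Chia1 and Cblif level of chief-neck cells had a lowest value of 50.2, a median of 116 and a highest value of 1081 per 10000 in untreated mice, and medians of 106 at day 1, 88.4 at day 3 with AREG and 96.3 at day 3. The summed Muc6 and Gkn3 level had a lowest value of 5.26, a median of 39.8 and a highest value of 764 per 10000 in untreated mice, and medians of 48.0 at day 1, 31.4 at day 3 with AREG and 38.0 at day 3. Both levels thus covered wide ranges in every library. In untreated mice the cells just inside the chief limit lay at 50.2 to 51.3 per 10000 and those just outside at 48.7 to 49.9, while at the neck limit they lay at 5.26 to 6.14 inside and 3.82 to 4.80 outside. Of the chief-gated cells that missed the neck limit, 133 had exactly 1 neck UMI in untreated mice, 6 at day 1, 76 at day 3 with AREG and 45 at day 3. Chief-neck cells that held exactly 2 neck UMIs, the minimum, made up 13.5% in untreated mice, 13.2% at day 1, 17.5% at day 3 with AREG and 8.53% at day 3.

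The name was checked against genes that the rule did not use, after each cell was thinned to 500 UMIs. On the chief side, at least 1 UMI of Clps, which encodes the lipase cofactor colipase, was seen in 100% of chief-neck cells in untreated mice, 89.5% at day 1, 100% at day 3 with AREG and 99.2% at day 3. In acid pump-gated cells, which should lack it, the Clps share was 79.0% in untreated mice, 7.72% at day 1, 69.9% at day 3 with AREG and 63.2% at day 3, so its presence alone separates little outside day 1. On the neck side, Agr2, which encodes a disulfide isomerase that mucins need to fold, was seen in 75.7% of chief-neck cells in untreated mice, 60.5% at day 1, 56.2% at day 3 with AREG and 49.6% at day 3. In chief cells without neck genes the Agr2 share was 16.3% in untreated mice, 5% at day 1, 16.9% at day 3 with AREG and 11% at day 3, and in acid pump-gated cells it was 11.8%, 4.36%, 5.48% and 6.76% in the same libraries. These cells had median depths of 4412 UMIs (chief cells without neck genes) and 1829.5 UMIs (acid pump-gated cells) in untreated mice before thinning. A UMI of Agr2 or the water channel Aqp5 together with one of Clps or Pla2g1b was held by 76.0% of chief-neck cells in untreated mice, 60.5% at day 1, 56.9% at day 3 with AREG and 51.2% at day 3. Aqp5 itself was seen in only 5.21% of chief-neck cells in untreated mice, 5.26% at day 1, 3.1% at day 3 with AREG and 1.55% at day 3. The pairing thus rested almost wholly on Agr2. In neck cells without chief genes the pairing was seen in 96.1% in untreated mice, 56% at day 1, 86.7% at day 3 with AREG and 88.1% at day 3, so it was held more often there than in chief-neck cells in 3 of the 4 libraries and does not set the chief-neck cells apart from them. It was seen in 16.4%, 5%, 16.9% and 11% of chief cells without neck genes in the same libraries, and in 34.0% of pit-gated cells in untreated mice, 2.67% at day 1, 20% at day 3 with AREG and 14.6% at day 3.

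Tff2, the trefoil peptide for which neck cells are best known, did not set the chief-neck cells apart in 3 of the 4 libraries. After thinning, 37.5% of chief-neck cells in untreated mice held a Tff2 UMI, against 20.7% of chief cells without neck genes. The share was 15.8% of chief-neck cells against 25% of the 20 chief cells without neck genes at day 1, 15.6% against 11.5% at day 3 with AREG, and 14.0% against 12.9% at day 3. In acid pump-gated cells, which should lack it, the Tff2 share was 30.6% in untreated mice, 24.2% at day 1, 18.2% at day 3 with AREG and 16.1% at day 3. Lipf, the gastric lipase gene, gave 0 UMIs in the chief-neck cells of untreated mice, 0 at day 1, 1 at day 3 with AREG and 3 at day 3. The cells are therefore named here for the 4 genes of the rule, and not for a full neck programme.

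The 4 libraries held 56007532 to 98893436 UMIs, and 3926 to 13897 barcodes per library passed the cell filters. Cells had a median of 2507 UMIs in untreated mice, 2724.5 at day 1, 2685 at day 3 with AREG and 3013.5 at day 3. Of the filtered cells' barcodes, 8 were shared over all pairs of libraries, and 0 of these belonged to a chief-neck cell in any library. Free RNA, read from barcodes under 50 UMIs, held Chia1 and Cblif at 46.3 per 10000 in untreated mice, 2.48 at day 1, 25.6 at day 3 with AREG and 32 at day 3. Muc6 and Gkn3 stood at 3.08 per 10000 of free RNA in untreated mice, 2.0 at day 1, 4.61 at day 3 with AREG and 9.52 at day 3. All of these values were below the limits of the rule except the neck genes at day 3, where free RNA itself stood above 5 per 10000.

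Free RNA and doublets can both put genes of 2 cell types under 1 barcode, and the values that bear on them were as follows. The ratio of Gkn3 to Muc6 UMIs, both of which the rule used, was 13.8 in chief-neck cells of untreated mice, against 5.87 in neck cells without chief genes, 3.37 in chief cells without neck genes and 2.92 in free RNA. At day 1 it was 2.19 in chief-neck cells, against 0.527 in neck cells without chief genes, 1.62 in chief cells without neck genes and 1.03 in free RNA. At day 3 with AREG it was 4.49 in chief-neck cells, against 2.73 in neck cells without chief genes, 5.32 in chief cells without neck genes and 1.35 in free RNA. At day 3 it was 5.03 in chief-neck cells, against 2.58 in neck cells without chief genes, 6.14 in chief cells without neck genes and 2.05 in free RNA. Chief cells without neck genes, which sit in the same free RNA, held a summed neck level of 0.275 per 10000 in untreated mice, 1.70 at day 1, 1.00 at day 3 with AREG and 0.968 at day 3. That of the chief-neck cells was 55.1 in untreated mice, 52.3 at day 1, 49.1 at day 3 with AREG and 48.1 at day 3, but the rule set this difference. No doublet caller was run and the rate of doublets was not measured. Chief-neck cells had a median of 2177 UMIs in untreated mice, against 4412 in chief cells without neck genes and 1353 in neck cells without chief genes. At day 1 they had 5592.5 UMIs, against 866.5 in chief cells without neck genes and 2494 in neck cells without chief genes, and 15 of the 38 lay above 3 times their library's median. At day 3 with AREG chief-neck cells had 3063.5 UMIs, against 2484 in chief cells without neck genes and 1974 in neck cells without chief genes. At day 3 these medians were 2856, 2649 and 3014 UMIs in the same order of classes. The part of doublets and free RNA in the results below was not tested.

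Markers of other cell types were also present in chief-neck cells. The pit gate, 50 UMIs of pit genes per 10000, was passed by 24.0% of chief-neck cells in untreated mice (69 of 288), 5.26% at day 1, 5% at day 3 with AREG and 11.6% at day 3, and the part of these cells in the results was not tested. The 5 pit (surface mucous) markers summed to 11156 CPM (UMIs per 1000000 of the summed cells) in untreated mice, 4909 at day 1, 5916 at day 3 with AREG and 10188 at day 3, against 114249 to 166445 CPM in free RNA. Endocrine markers summed to 7276 CPM in untreated mice, above the 6841 CPM of free RNA, where 1 cell held 87.2% of these UMIs, and to 829 CPM at day 3, where 1 cell held 82.4%. Without those cells the sums were 973 CPM in untreated mice and 147 CPM at day 3. The 5 immune markers summed to 2.76 to 10.0 CPM and the 4 stroma markers to 1.38 to 9.21 CPM over the 4 libraries. Lyz2 (macrophages) and Col1a1 (fibroblasts) were at 0 UMIs in all 4. In the pit markers, 1 cell held 54.0% of the day 3 UMIs, and the day 3 sum was 4774 CPM without it.

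Within the chief-neck cells, most had Cblif and Gkn3 and fewer had Chia1 and Muc6. In untreated mice, 60.4% had Cblif without Chia1, 39.2% had both and 0.347% (1 cell) had Chia1 alone. The share with both chief genes was 55.3% at day 1, 47.5% at day 3 with AREG and 61.2% at day 3. Gkn3 and Muc6 together were seen in 56.6% in untreated mice, 71.1% at day 1, 61.3% at day 3 with AREG and 59.7% at day 3, and Muc6 without Gkn3 in 6.20% to 9.38%. All 4 genes met in 20.8% of the cells in untreated mice, 34.2% at day 1, 23.8% at day 3 with AREG and 31.8% at day 3. These shares rise with depth, and cells with all 4 genes had a median of 2523 UMIs in untreated mice and 8818 at day 1.

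The 2 chief genes stood at a different balance in chief-neck cells than in other chief cells. In untreated mice the ratio of Chia1 to Cblif UMIs was 0.375 in chief-neck cells, against 2.64 in chief cells without neck genes, 0.106 in neck cells without chief genes and 1.81 in free RNA. In chief-neck cells it was 0.981 at day 1, 1.17 at day 3 with AREG and 2.85 at day 3, against 2.24, 3.12 and 5.96 in chief cells without neck genes of the same libraries. Each chief-neck ratio was thus below that of the chief cells without neck genes of its own library. The rule set a minimum for the sum of both genes, so cells low in Chia1 passed it through Cblif. The ratios are therefore a description. The median share of Cblif among the chief gene UMIs of a cell was 100% in untreated chief-neck cells and 93.5% at day 3, against 80% and 28.2% in chief cells without neck genes.

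Across single chief-neck cells, the summed chief and neck levels had a Spearman correlation of 0.02 in untreated mice, 0.09 at day 1, −0.18 at day 3 with AREG and −0.40 at day 3. Gkn3 and Agr2 had 0.34 over 288 cells in untreated mice, 0.26 over 38 at day 1, 0.46 over 160 at day 3 with AREG and 0.43 over 129 at day 3. Gkn3 and Tff2 had 0.04 to 0.10 in the same libraries. These are descriptions of sparse counts from cells that share a library and differ in depth.

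The chief-neck cells made up fewer of all cells at day 1 than in untreated mice, but more of the chief-gated cells. They were 0.968% of filtered cells at day 1 (0.686% to 1.33%, exact Clopper-Pearson interval) and 2.07% in untreated mice (1.84% to 2.32%), a log2 ratio of −1.10 (−1.58 to −0.61). The chief cells without neck genes stood at 0.509% at day 1 and 8.35% in untreated mice, a log2 ratio of −4.04 (−4.67 to −3.40). Of all chief-gated cells under the acid pump limit, 65.5% (38 of 58) were chief-neck cells at day 1, against 19.9% (288 of 1449) in untreated mice, a log2 ratio of 1.72 (1.41 to 2.03). When each cell was thinned to 1000 UMIs before the rule was applied, the values were 50% (19 of 38) at day 1 and 13.9% (180 of 1291) in untreated mice. The share of acid pump-gated cells over the same neck limit was 2.68% at day 1 and 4.74% in untreated mice. Those cells had a median of 4355 UMIs at day 1 and 1829.5 in untreated mice. The source of their neck UMIs was not tested.

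By day 3 both kinds of chief-gated cells stood higher among all cells than at day 1. Chief-neck cells were 1.62% of filtered cells at day 3 (1.35% to 1.92%), against 0.968% at day 1 (log2 0.74, interval 0.22 to 1.26). Chief cells without neck genes were 2.63% at day 3, against 0.509% at day 1 (log2 2.37, interval 1.71 to 3.03). Among chief-gated cells the chief-neck share was 38.1% at day 3 (129 of 339), against 65.5% at day 1 (log2 −0.78, interval −1.12 to −0.45). Day 3 also stood above untreated mice in this share, by a log2 ratio of 0.94 (0.69 to 1.18), while the day 3 share of all filtered cells was below that of untreated mice by a log2 ratio of −0.36 (−0.66 to −0.06).

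With AREG, chief-neck cells were slightly fewer by the main rule, with an interval of the log2 ratio that ended at −0.05. With cells of at least 1000 UMIs they were 1.32% with AREG (137 of 10378) and 1.61% at day 3 (103 of 6406). With the neck limit at 20 per 10000 the shares were 0.843% with AREG (109 of 12923) and 1.08% at day 3 (86 of 7986). At both of these settings the interval of the ratio covered no difference. By the main rule chief-neck cells were 1.24% of filtered cells at day 3 with AREG (1.05% to 1.44%), against 1.62% at day 3 (log2 −0.38, interval −0.72 to −0.05). Among chief-gated cells they were 30% (160 of 533) with AREG, against 38.1% at day 3 (log2 −0.34, interval −0.61 to −0.07), and thinned to 1000 UMIs the shares were 22.4% with AREG and 31.5% at day 3. Neck cells without chief genes were 1.74% with AREG, against 3.27% at day 3 (log2 −0.91, interval −1.16 to −0.65), and chief cells without neck genes were 2.89% with AREG and 2.63% at day 3. With the chief limit at 100 per 10000 those shares stood the other way round, at 1.81% with AREG and 2.14% at day 3. Free RNA held fewer neck transcripts with AREG (4.61 per 10000) than at day 3 (9.52), and its part in these shares was not tested.

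**Figure D2:**
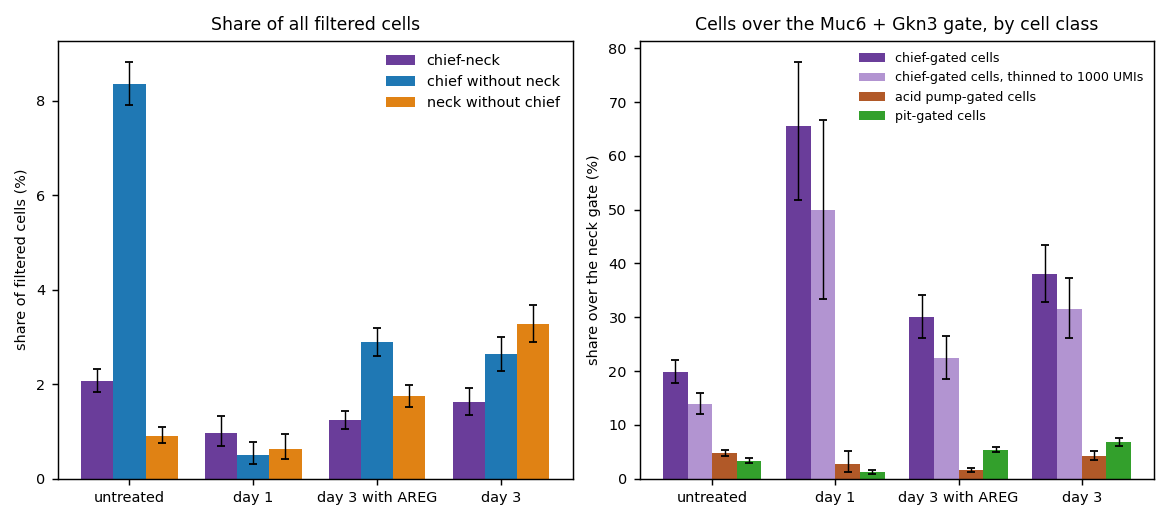
Left, chief-neck cells, chief cells without neck genes and neck cells without chief genes as a percentage of filtered cells. Right, the percentage of cells over the Muc6 + Gkn3 limit among chief-gated cells (at their own depth and thinned to 1000 UMIs), acid pump-gated cells and pit-gated cells. Bars are shares with exact 95% intervals for counting error. Chief-gated cells reached 65.5% at day 1 and 19.9% in untreated mice, while no acid pump-gated or pit-gated bar exceeded 6.83%.

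The first comparison of gene levels set the chief-neck cells of untreated mice beside the chief cells without neck genes of the same library. The rule cut both classes from these libraries, so the values are a description. Chief-neck cells gave 24.7% of their UMIs to Clps and Pla2g1b (pancreatic-type phospholipase) together, against 48.2% in chief cells without neck genes and 2.76% in neck cells without chief genes. Pgc, which encodes pepsinogen C and is made by both chief and neck cells, took 32.5% of UMIs in chief-neck cells, 31.1% in chief cells without neck genes and 34.4% in neck cells without chief genes. Ribosomal protein genes took 5.92% in chief-neck cells and 1.77% in chief cells without neck genes. Since the 20 most abundant genes held 63.5% of the UMIs of chief-neck cells and 85.2% of those of chief cells without neck genes, the median log2 ratio over all 12158 genes with at least 10 UMIs was 0.95, and it was −0.06 when the total excluded mitochondrial genes, ribosomal protein genes and the next 20 genes by abundance. Genes are read here relative to that shift.

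Of 1149 genes with at least 50 CPM in either class, 953 (82.9%) were at least 2-fold higher in chief-neck cells and 6 (0.522%) at least 2-fold lower. With the abundant genes left out of the total, 430 were higher and 545 lower of 4279. The rule cut these classes by their Muc6 and Gkn3 levels, which favours neck genes, so the counts of lists in this contrast are a description only. Of 10 neck mucous genes with at least 10 UMIs over both classes, 9 were at least 2-fold higher and none lower, with a median log2 ratio of 2.99, where 47.6% of all 12158 genes were higher by this measure and 3.43% lower. The median was 1.88 with the abundant genes left out of the total. A4gnt, the enzyme that caps gland mucin with a terminal N-acetylglucosamine, had 208 CPM in chief-neck cells, 11.2 CPM in chief cells without neck genes and 515 CPM in neck cells without chief genes. Agr2 had 3724 CPM in chief-neck cells, 266 in chief cells without neck genes and 10604 in neck cells without chief genes. Spdef and Creb3l4, factors of secretory and mucous maturation, stood at log2 ratios of 3.05 and 3.74. Tff2 was nearer to chief cells, with 1349 CPM in chief-neck cells, 380 in chief cells without neck genes and 11698 in neck cells without chief genes.

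Glycosylation genes, which build mucin sugar chains, had 6 of 7 members at least 2-fold higher in chief-neck cells and a median log2 ratio of 2.55 (1.43 with the abundant genes left out). Over all 12158 genes, 47.6% were at least 2-fold higher and 3.43% lower. The all-gene median was 0.95 (−0.06 with the abundant genes left out). Gcnt3, a mucin core branching enzyme, had 70.9 CPM in chief-neck cells and 6.73 CPM in chief cells without neck genes. The unfolded protein response and folding list had 12 of 16 members at least 2-fold higher, beside the same 47.6% of all genes. Its median was 1.33, and 0.15 with the abundant genes left out. Digestive enzymes had a median of 0.20, below the all-gene median (−0.69 against −0.06 with the abundant genes left out), with 2 of 10 at least 2-fold higher and 1 lower. The 2 were Pga5, which encodes pepsinogen A, and Cela1, an elastase gene, and the 1 was Pla2g1b. Pga5 had 4278 CPM in chief-neck cells (90.6% of them with a UMI), 244 CPM in chief cells without neck genes and 8303 CPM in neck cells without chief genes. Cela1 had 107 CPM in chief-neck cells, 5.07 CPM in chief cells without neck genes and 140 CPM in neck cells without chief genes. Both enzyme genes were thus higher in both classes with neck genes than in chief cells without them in untreated mice.

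By the size rule, the highest ratios after Ghrl and Ceacam10 were those of Kcne3, a potassium channel subunit (58.0 CPM in chief-neck cells and 2.32 CPM in chief cells without neck genes, log2 4.15), Cela1, Pga5, A4gnt, Cpn1, Agr2, Chad and Erlin1, at log2 4.15 to 3.74. Ghrl, the ghrelin gene, rested on 1 cell with 93.0% of its UMIs, and its log2 ratio of 4.98 was 1.21 without that cell. Ceacam10 also rested largely on 1 cell, with a log2 ratio of 4.85 and 3.28 without it. The lowest ratios were those of the trypsinogen Try10 (56.2 CPM in chief-neck cells and 183 in chief cells without neck genes, log2 −1.69), the surface antigen Psca (3115 CPM in chief-neck cells and 7610 CPM in chief cells without neck genes, log2 −1.29) and Pla2g1b (94081 CPM in chief-neck cells and 223056 CPM in chief cells without neck genes, log2 −1.25). Sst at −1.24 turned to 0.57 without 1 cell of the chief class. Clps (−0.76), Pdia2 (−0.73), the stress factor Nupr1 (−0.72), Tmed6 (−0.72), Try4 (−0.55) and Furin (−0.40) completed the list. Bhlha15 had 10.1 CPM in chief-neck cells, 20.2 CPM in chief cells without neck genes and 0 UMIs in neck cells without chief genes.

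**Figure D3:**
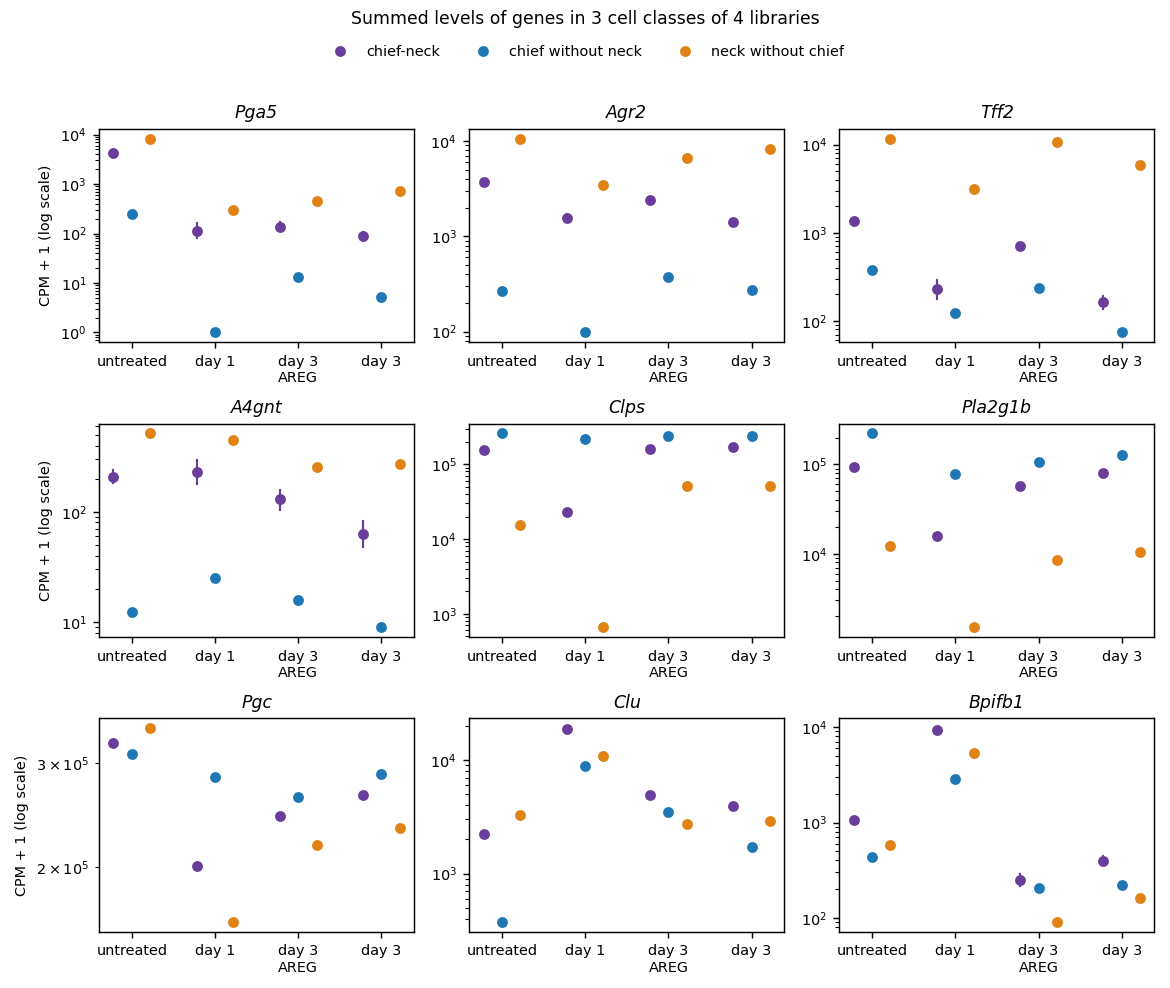
Summed CPM + 1 (log axis) of 9 genes in chief-neck cells, chief cells without neck genes and neck cells without chief genes, by library, with exact Poisson intervals for the chief-neck cells. Agr2, A4gnt and Pga5 of chief-neck cells lie between the 2 other classes in every library, as in untreated mice where Agr2 had 3724, 266 and 10604 CPM in that order of classes, while Bpifb1 and Clu peak at day 1 in chief-neck cells at 9419 and 18630 CPM.

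Sorting the chief-gated cells by their neck gene level showed which genes went along with it. In untreated mice, Chia1 stood at 25329 CPM in the 1161 chief cells without neck genes, at 8408 CPM in 64 chief-neck cells with 5 to 20 neck UMIs per 10000, at 2912 CPM in 93 cells with 20 to 50, at 1180 CPM in 59 cells with 50 to 100 and at 247 CPM in 72 cells with 100 or more. Cblif stayed between 9577 and 13960 CPM over the same 5 classes and was at 1466 CPM in neck cells without chief genes. The rule bears on both values. Cells of the 5 classes had to reach 50 per 10000 of Chia1 and Cblif together, so those low in Chia1 passed through Cblif. Neck cells without chief genes had to stay under the same limit. Clps had 259031, 207090, 153215, 98813 and 48022 CPM along the same order. Agr2 ran the other way, with 266, 2371, 3436, 4925 and 7054 CPM, and Spdef with 10.7, 56.7, 100.4, 134 and 163 CPM. Tff2 had 380, 519, 1308, 1696 and 3540 CPM and was at 11698 CPM in neck cells without chief genes. Median depth was lower along the order too, at 4412 UMIs in the first class and 1630 in the last, and a change in the total shifts every CPM.

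At day 3 the same order showed Chia1 at 40983, 27501, 29468, 7665 and 847 CPM and Agr2 at 271, 437, 614, 3520 and 7316 CPM, in classes of 210, 43, 31, 21 and 34 cells. Agr2 was thus under 1000 CPM in the 3 classes below 50 neck UMIs per 10000 at day 3, whereas in untreated mice it was at 2371 CPM in the class with 5 to 20. Tff2 stood at 72.9, 88.3, 47.7, 282 and 847 CPM. Pga5 stood at 4.21, 7.16, 23.9, 121 and 728 CPM at day 3.

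**Figure D4:**
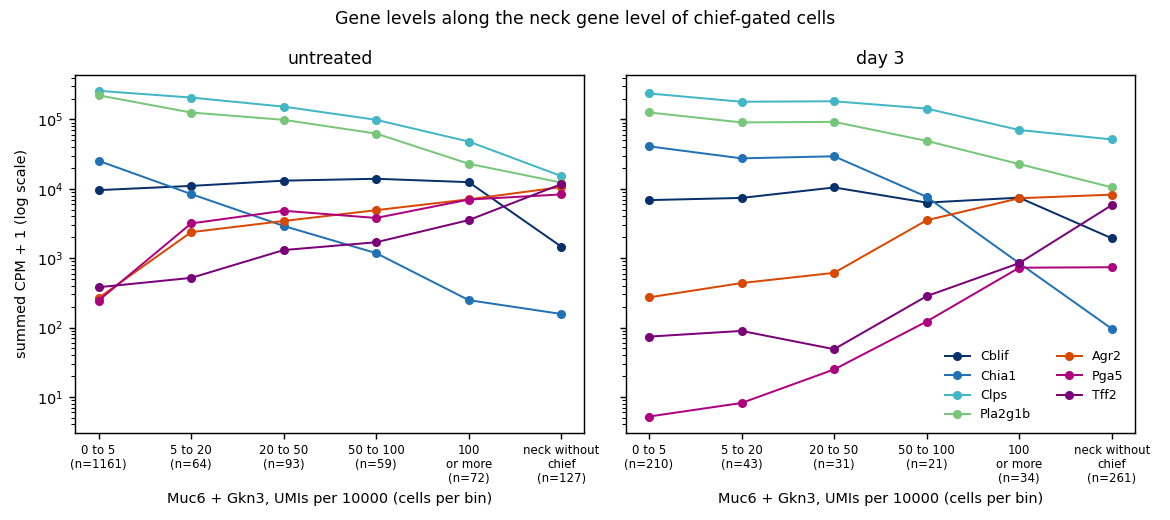
Summed CPM + 1 (log axis) of 7 genes in chief-gated cells sorted by their Muc6 + Gkn3 level (UMIs per 10000, number of cells under each class), with neck cells without chief genes last, for untreated mice and day 3. In untreated mice Chia1 runs from 25329 to 247 CPM across the 5 chief-gated classes while Cblif stays between 9577 and 13960 CPM and Agr2 runs from 266 to 7054 CPM. The rule set a minimum for Chia1 and Cblif together in these classes, so cells low in Chia1 passed it through Cblif.

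At day 1 the chief-neck cells gave a smaller part of their transcripts to digestive enzymes than in untreated mice and a larger part to ribosomal protein genes. Clps and Pla2g1b together took 3.90% of their UMIs at day 1 and 24.7% in untreated mice, Pgc took 20.1% at day 1 and 32.5% in untreated mice, and ribosomal protein genes took 14.9% at day 1 and 5.92% in untreated mice. With this, the median log2 ratio over all 7635 genes with at least 10 UMIs was 1.09, and 0.22 with the abundant genes left out of the total. Of 2575 genes with at least 50 CPM, 1470 (57.1%) were at least 2-fold higher at day 1 and 84 (3.26%) at least 2-fold lower, while with the abundant genes left out 1620 were higher and 818 lower of 5409. The day 1 values rest on 38 cells. Their UMIs summed to 298869, against 1085776 in untreated mice, so the minimum of 50 CPM took fewer UMIs at day 1. Mmp7 passed it with 15 UMIs at day 1, whereas 58 UMIs of Ceacam10 made 53.4 CPM in untreated mice. Genes with few UMIs could thus enter through a high day 1 level, which favours higher genes in the split. The size of this effect was not tested.

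Digestive enzymes and cofactors were lower as a group at day 1. Of 8 members that reached 10 UMIs in the pair of libraries, 6 were at least 2-fold lower and none higher, with a median log2 ratio of −2.65 against 1.09 over all genes, of which 5.24% were lower and 52.6% higher by this measure. Clps had 23338 CPM at day 1 and 152854 CPM in untreated mice (log2 −2.71), and Pla2g1b had 15632 CPM at day 1 and 94081 CPM in untreated mice (log2 −2.59). Try4, a trypsinogen, had 13.4 CPM (4 UMIs) at day 1 and 541 CPM in untreated mice, a log2 ratio of −5.23 with an interval of −7.22 to −3.97. Ratios are of CPM + 1 and their intervals are exact conditional ones of the count ratio. Free RNA differed in the same direction, with Clps at 0.299% of its UMIs at day 1 and 7.13% in untreated mice and Pla2g1b at 0.136% at day 1 and 5.54% in untreated mice, and its part in these values was not tested. Pga5 had 114 CPM at day 1 and 4278 CPM in untreated mice, a log2 ratio of −5.22 (−5.76 to −4.75). After thinning to 500 UMIs, 7.89% of chief-neck cells held a Pga5 UMI at day 1 and 71.5% in untreated mice, and of neck cells without chief genes 12% at day 1 and 90.6% in untreated mice. Pdia2 (log2 −5.0), which encodes a disulfide isomerase of enzyme-secreting cells, Pnliprp1 (−4.06, and −2.54 without 1 untreated cell), Ghrl (−7.49, and −3.73 without 1 untreated cell), Chga (−4.42) and Sst (−3.72) were also among the lowest. Tafa2 and Try10 had 0 UMIs at day 1, which allows up to 10.0 CPM, and were at least 6.61-fold and 5.60-fold lower than in untreated mice. Free RNA held 7.12 CPM of Tafa2 at day 1 and 1138 CPM in untreated mice. Ceacam10, also at 0 UMIs at day 1, rested on 1 untreated cell for 69.0% of its UMIs.

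The neck mucous list split at day 1, with 4 of 9 members at least 2-fold higher and 2 lower and a median of 0.68, where 52.6% of all genes were higher and 5.24% lower by this measure and the all-gene median was 1.09. With the abundant genes left out the median turned to −0.24, against 0.22 over all genes. Dmbt1, a scavenger receptor protein of mucosal surfaces, had the highest ratio of all genes, with 1529 CPM at day 1 and 3.68 CPM (4 UMIs) in untreated mice, a log2 ratio of 8.35 (7.33 to 10.58). 1 of the 38 cells held 39.2% of its UMIs, the level without that cell was 1081 CPM, and 20 of the 38 cells had a UMI. Dmbt1 was as high in the 20 chief cells without neck genes of day 1, at 1623 CPM, and stood at 208 CPM in neck cells without chief genes and 173 CPM in free RNA. Bpifb1, a secreted antimicrobial-type protein, had 9419 CPM at day 1 with a UMI in 38 of 38 cells, against 1072 CPM in untreated mice with a UMI in 144 of 288 (log2 3.13). Tff2 had 228 CPM at day 1 and 1349 CPM in untreated mice (log2 −2.56), and Agr2 had 1563 CPM at day 1 and 3724 CPM in untreated mice (log2 −1.25). Muc6 and Gkn3 are left out of these counts because the rule used them.

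Metaplasia genes were at least 2-fold higher at day 1 in 7 of 8 measured members, with a median of 1.62, where 52.6% of all genes were at least 2-fold higher and the all-gene median was 1.09. Leaving out the abundant genes, 2 of 7 were at least 2-fold higher, beside 25.6% of all genes, and the median was 0.72, against 0.22 over all genes. Clu, the secreted chaperone clusterin, had 18630 CPM at day 1 and 2221 CPM in untreated mice (log2 3.07). After thinning, 94.7% of chief-neck cells held a Clu UMI at day 1 and 54.5% in untreated mice, while free RNA held 5196 CPM at day 1 and 1794 CPM in untreated mice. Clu was also higher at day 1 in both other classes. In chief cells without neck genes the thinned share was 100% at day 1 and 19.4% in untreated mice, with 8793 and 375 CPM. In neck cells without chief genes it was 96% at day 1 and 67.7% in untreated mice, with 10945 and 3263 CPM. Cd44, a receptor for hyaluronan, had 53.5 CPM at day 1 in 10 of 38 cells and 1.84 CPM in untreated mice in 2 of 288 cells (log2 4.26). Sox9, a progenitor transcription factor, had 251 CPM at day 1 and 50.7 CPM in untreated mice (log2 2.29). Gpx2, a glutathione peroxidase, had 315 CPM at day 1 and 100.4 CPM in untreated mice (log2 1.64), and Wfdc2 had 130 CPM at day 1 and 122 CPM in untreated mice (log2 0.09).

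Paligenosis genes, a list named for the programme by which mature cells return to the cell cycle, had 7 of 9 members at least 2-fold higher at day 1 and a median of 1.88, beside 52.6% and a median of 1.09 over all genes. With the abundant genes left out these were 5 of 9 and 1.01, beside 25.6% and 0.22 over all genes. Atf3, a stress transcription factor, had 1322 CPM at day 1 and 227 CPM in untreated mice (log2 2.53). Lamp1, a lysosome membrane protein, had 261 CPM at day 1 and 65.4 CPM in untreated mice (log2 1.98). Ifrd1 had 43.5 CPM at day 1 and 1.84 CPM in untreated mice (log2 3.97), and Ddit4, an inhibitor of mTORC1, had 60.2 CPM at day 1 and 4.61 CPM in untreated mice (log2 3.45). ERBB receptors and regulators were at least 2-fold higher in 6 of 7, with a median of 1.82, beside the same 52.6% and 1.09, and 3 of 7 were higher and 1 lower with a median of 0.93 when the abundant genes were left out. Erbb3 had 50.2 CPM at day 1 and 9.21 CPM in untreated mice, and Errfi1, a feedback inhibitor of EGFR, had 87.0 CPM at day 1 and 21.2 CPM in untreated mice. Areg itself gave 6 UMIs at day 1 and 3 in untreated mice.

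The cycle genes of day 1 came largely from 1 cell. Of 10 measured G2/M genes, 10 were at least 2-fold higher at day 1, beside 52.6% of all genes, with a median of 3.00, but a single cell of 41725 UMIs held 87.3% of their UMIs. Without the cell with most G2/M UMIs in each library the list summed to 89.4 CPM at day 1 and 98.9 CPM in untreated mice, and 2 measured genes were left, 1 at least 2-fold higher and 1 lower. Mki67 was seen in 3 of 38 cells at day 1. After thinning, 2 of 38 cells (5.26%) held 2 or more G2/M UMIs at day 1 and 1 of 288 (0.347%) in untreated mice. Racgap1, a cytokinesis gene among the 10 highest ratios, had 50.2 CPM at day 1 and 0.921 CPM in untreated mice, but 1 cell held 93.3% of its day 1 UMIs, and the day 1 level was 3.89 CPM without it.

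Among the 10 highest ratios at day 1 was that of S100a6. S100a6, a calcium-binding protein, had 1951 CPM at day 1 and 39.6 CPM in untreated mice (log2 5.59, interval 5.17 to 6.10), with a UMI in 28 of 38 cells, but free RNA held 12283 CPM at day 1 and 695 CPM in untreated mice. Socs3, an inhibitor of cytokine signalling, had 475 CPM at day 1 in 22 of 38 cells and 13.8 CPM in untreated mice (log2 5.01), and free RNA held 79.6 CPM at day 1. Sbno2 had 204 CPM at day 1 and 1.84 CPM in untreated mice (log2 6.17, interval 4.88 to 9.87), and free RNA held 43.6 CPM at day 1. Mmp7, a metalloproteinase, had 50.2 CPM (15 UMIs, 8 of them in 1 cell) at day 1 and 0 UMIs in untreated mice, which allows up to 2.76 CPM, so it was at least 18.2-fold higher, and it stood at 25 CPM without that cell. Itln1 (log2 5.57, with 51.9% of its UMIs in 1 cell), Epb41l4aos (5.06), Myof (4.91) and Tut7 (4.83) completed the highest. The injury list as a whole had 5 of 9 members at least 2-fold higher and a median of 1.02, beside 52.6% and a median of 1.09 over all genes.

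Day 3 chief-neck cells differed from those of day 1 mostly in the other direction. The median log2 ratio over 7942 genes was −0.76 (−0.06 with the abundant genes left out of the total), and of 2568 genes with at least 50 CPM, 72 (2.8%) were at least 2-fold higher at day 3 and 1198 (46.7%) lower. After leaving out the abundant genes, 628 were higher and 898 lower of 5483. The minimum of 50 CPM again took fewer UMIs at day 1, with 298869 UMIs in sum, than at day 3, with 887119. Here this favours lower genes in the split, and the size of the effect was not tested. Digestive enzymes were at least 2-fold higher in 5 of 8 members, with a median of 2.10 against −0.76 over all genes, of which 4.91% were higher and 37% lower at a minimum of 10 UMIs. Clps had 167726 CPM at day 3 and 23338 CPM at day 1 (log2 2.85), and Try4 had 921 CPM at day 3 and 13.4 CPM at day 1 (log2 6.00, interval 4.74 to 7.98). Pdia2 had 1184 CPM at day 3 and 43.5 CPM at day 1 (log2 4.73), and Pnliprp1 had 211 CPM at day 3 and 16.7 CPM at day 1 (log2 3.58). The exceptions were Cela1, at 15.8 CPM at day 3 and 97.0 CPM at day 1 (log2 −2.55), and Pga5, at 86.8 CPM at day 3 and 114 CPM at day 1 (log2 −0.39).

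Try10 (63.1 CPM at day 3 and 0 UMIs at day 1, at least 6.29-fold higher), Amhr2 (67.6 CPM at day 3 and 0 UMIs at day 1, at least 6.74-fold) and Tmed6 (1092 CPM at day 3 and 114 CPM at day 1, log2 3.25) were also among the highest. Tafa2 had 211 CPM at day 3 and 0 UMIs at day 1, at least 21.0-fold higher, while free RNA held 4616 CPM at day 3 and 7.12 CPM at day 1. Chga, Chgb and Hdc, endocrine genes, were among the highest too, but 1 day 3 cell held 91.4%, 92.0% and 90.2% of their UMIs, and without it they stood at 38.8, 17.1 and 6.84 CPM at day 3, against 16.7, 13.4 and 3.35 CPM at day 1.

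Both the injury list and the metaplasia list were lower at day 3 than at day 1. Injury genes were at least 2-fold lower in 7 of 9 members (median −1.70). Metaplasia genes were at least 2-fold lower in 7 of 9 (median −1.42). Over all genes 37% were at least 2-fold lower, with a median of −0.76. The counts were, after leaving out the abundant genes, 4 of 9 injury genes (median −0.99) and 2 of 8 metaplasia genes (median −0.72), beside 14.2% and a median of −0.06 over all genes. Clu had 3930 CPM at day 3 and 18630 CPM at day 1 (log2 −2.24), and S100a6 had 34.9 CPM at day 3 and 1951 CPM at day 1 (log2 −5.76). Socs3 had 5.64 CPM at day 3 and 475 CPM at day 1 (log2 −6.16), and Klf2, a Kruppel-type factor, had 2.25 CPM (2 UMIs) at day 3 and 164 CPM at day 1 (log2 −5.66, interval −9.27 to −4.25). Bpifb1 had 397 CPM at day 3 and 9419 CPM at day 1 (log2 −4.57), and Dmbt1 had 100.3 CPM at day 3 and 1529 CPM at day 1 (log2 −3.92). Mmp7 and Pdk4 had 0 UMIs at day 3, which allows up to 3.38 CPM, and 50.2 CPM each at day 1, and were at least 14.8-fold lower. Plac9 (−4.52), Cebpd (−4.45) and the clotting factor gene F5 (−4.38) were also among the lowest. None of the 10 neck mucous genes was higher at day 3, and 5 were at least 2-fold lower, among them A4gnt (62.0 CPM at day 3 and 231 CPM at day 1, log2 −1.88). Over all genes 20.3% were higher by any amount and 37% were at least 2-fold lower. The median of the list was −1.01, against −0.76 over all genes. With the abundant genes left out, 3 of 9 were at least 2-fold lower and the median was −0.13, beside 14.2% and −0.06 over all genes.

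AREG was the smallest difference among the 4 library pairs by its count of genes. Of 1537 genes with at least 50 CPM, 41 (2.67%) were at least 2-fold higher with AREG and 22 (1.43%) lower, and the median over 8519 genes was 0.13. With the abundant genes left out of the total the median was −0.00, and 206 genes were higher and 239 lower of 4890. Among the 4 pairs this count was also the lowest under each alternative tried, with 39 to 972 genes. Tff2 had 698 CPM with AREG and 161 CPM at day 3 (log2 2.11, interval 1.84 to 2.39), but 1 cell held 45% of the AREG UMIs, and without it the level was 393 CPM and the log2 ratio 1.28. A Tff2 UMI was seen in 46.9% of chief-neck cells with AREG and 35.7% at day 3 at full depth, and in 15.6% with AREG and 14.0% at day 3 after thinning. Aqp5 had 67.8 CPM with AREG and 27.1 CPM at day 3 (log2 1.29), and A4gnt had 129 CPM with AREG and 62.0 CPM at day 3 (log2 1.04). Agr2 had 2391 CPM with AREG and 1426 CPM at day 3 (log2 0.75). In all, 3 of 10 neck mucous genes were at least 2-fold higher and none lower, with a median of 0.62, and 0.46 with the abundant genes left out. Of all 8519 genes, 6.83% were higher and 4.58% lower by this measure.

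All 16 genes of the unfolded protein response and folding list had ratios above 0 with AREG, 2 of them at least 2-fold, with a median of 0.50. Over all 8519 genes 60.4% were above 0 and 6.83% at least 2-fold higher, with a median of 0.13. The list's median was 0.39, with 16 of 16 above 0 and none past 2-fold, beside 49.9% of all genes above 0, when the abundant genes were left out, and 0.48, with 15 of 16 above 0, without the cell with most of the list's UMIs in each library. Hspa5, the main folding chaperone of the endoplasmic reticulum, had 566 CPM with AREG and 354 CPM at day 3 (log2 0.68). It was also higher with AREG in the other classes. Chief cells without neck genes had 551 CPM with AREG and 226 CPM at day 3. Neck cells without chief genes had 617 CPM with AREG and 497 CPM at day 3. Herpud1, of the degradation branch, had 289 CPM with AREG and 144 CPM at day 3 (log2 1.00), and Dnajb9 had 85.8 CPM with AREG and 40.6 CPM at day 3 (log2 1.06). Bhlha15 had 78.9 CPM with AREG and 44.0 CPM at day 3 (log2 0.83), from 57 UMIs with AREG and 39 at day 3. Its levels with AREG and at day 3 were 48.4 and 31.3 CPM in chief cells without neck genes. In neck cells without chief genes they were 31.5 and 18.6 CPM. ERBB receptors and regulators had no member past 2-fold in either direction, and Areg gave 0 UMIs with AREG and 0 at day 3, which allows up to 4.15 CPM with AREG and 3.38 CPM at day 3.

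By the size rule, the highest ratio with AREG was that of Cul3, a ubiquitin ligase scaffold, with 143 CPM in 53 of 160 cells with AREG and 20.3 CPM in 16 of 129 cells at day 3 (log2 2.75, interval 2.08 to 3.62). Free RNA held 1479 CPM of Cul3 with AREG and 46.3 CPM at day 3. Bace2 (log2 1.88), Ube2e1 (1.85), Get3 (1.68), Crip1 (1.61), the metallothionein Mt2 (349 CPM with AREG and 119 CPM at day 3, 1.54), the folding gene Dnajc10 (1.42), Ghrl (1.39, and 0.11 without 1 AREG cell) and Sec16a, a gene of export from the endoplasmic reticulum (1.36), followed. The lowest were Hdc, Chga and Chgb, whose day 3 UMIs came largely from the 1 cell named above, and Tafa2 (4.15 CPM with AREG and 211 CPM at day 3, beside free RNA at 4.93 CPM with AREG and 4616 CPM at day 3). Cym (41.5 CPM with AREG and 280 CPM at day 3, log2 −2.72), Try10 (−1.98), Lypd8l (−1.70), Morrbid (−1.46), the surface mucin gene Muc5ac (34.6 CPM with AREG and 94.7 CPM at day 3, −1.43) and Exo1 (−1.42) followed. 1 day 3 cell held 45.2% of the Muc5ac UMIs, and without it the day 3 level was 52.8 CPM and the log2 ratio −0.60.

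Against untreated mice, the chief-neck cells of day 3 held the most abundant enzyme transcripts within 2-fold, and held less of Pga5 and of several neck mucous genes. The median over 8589 genes was 0.35 (0.15 with the abundant genes left out), and of 1452 genes with at least 50 CPM, 204 (14%) were at least 2-fold higher at day 3 and 86 (5.92%) lower. Clps had 167726 CPM at day 3 and 152854 CPM in untreated mice (log2 0.13), Pla2g1b 80812 CPM at day 3 and 94081 CPM in untreated mice (log2 −0.22), and Pgc 264732 CPM at day 3 and 324833 CPM in untreated mice (log2 −0.30). Pga5 had 86.8 CPM at day 3 and 4278 CPM in untreated mice (log2 −5.61, interval −5.97 to −5.30), and Cela1 15.8 CPM at day 3 and 107 CPM in untreated mice (log2 −2.68). Pga5 was also low in neck cells without chief genes, at 739 CPM at day 3 and 8303 CPM in untreated mice.

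Neck mucous genes had 4 of 10 members at least 2-fold lower at day 3, 1 higher and a median of −0.82 (−1.0 with the abundant genes left out), where 5.37% of all 8589 genes were lower and 22.9% higher by this measure. Tff2 had 161 CPM at day 3 and 1349 CPM in untreated mice (log2 −3.06), A4gnt 62.0 CPM at day 3 and 208 CPM in untreated mice (log2 −1.73), and Agr2 1426 CPM at day 3 and 3724 CPM in untreated mice (log2 −1.38). The 1 higher gene was Dmbt1, at 100.3 CPM at day 3 and 3.68 CPM in untreated mice (log2 4.44). Spdef (log2 −0.16) and Creb3l1 (0.05) differed by less than 2-fold. The chief cell secretory programme had 2 of 9 members at least 2-fold higher, Bhlha15 (44.0 CPM at day 3 and 10.1 CPM in untreated mice, log2 2.01) and Tnfrsf19 (48.5 CPM at day 3 and 13.8 CPM in untreated mice, log2 1.74). This count is near the 22.9% of all genes. All 9 were above 0, with a median of 0.85, beside 66.7% and a median of 0.35 over all genes, and 7 of 9 were above 0 with the abundant genes left out, beside 57.4%. G2/M genes had 8 of 9 members at least 2-fold higher at day 3 and a median of 1.39, and without the cell with most of their UMIs in each library 4 of 7 and a median of 1.07. They summed to 230 CPM at day 3 and 110 CPM in untreated mice, and after thinning 3 of 129 cells (2.33%, 0.482% to 6.65%) at day 3 and 1 of 288 (0.347%, 0.00879% to 1.92%) in untreated mice held 2 or more G2/M UMIs, with intervals that overlap.

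The highest ratios at day 3 against untreated mice were those of Exo1, an exonuclease gene of DNA repair (72.1 CPM at day 3 and 1.84 CPM in untreated mice, log2 4.69, interval 3.38 to 8.37), Dmbt1, Amhr2 (4.19), Sltm (3.85), Gxylt1 (3.71), Trim58 (3.53), Ccnb1ip1 (3.51), Tmem64 (3.48) and Ell2, an elongation factor of secretory cells (3.12). Sltm, an RNA-binding protein gene, had 3528 CPM at day 3 and 244 CPM in untreated mice, with a UMI in 94.6% of cells at day 3 and 45.8% in untreated mice. It also had 2830 CPM at day 3 and 193 CPM in untreated mice in chief cells without neck genes, and 2568 CPM at day 3 and 208 CPM in untreated mice in neck cells without chief genes. Chgb (3.15) turned to −0.41 without 1 cell. The lowest were Ghrl, Pga5, Ceacam10 (−4.06), Tff2, Nupr1 (78.9 CPM at day 3 and 536 CPM in untreated mice, −2.75), Bace2 (−2.73), the matricellular gene Ccn1 (−2.69), Cela1, Fam3d (−2.22) and Bex4 (−2.15). Without its top cell, Ghrl stood at 500 CPM in untreated mice, against 64.3 CPM at day 3.

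**Figure D5:**
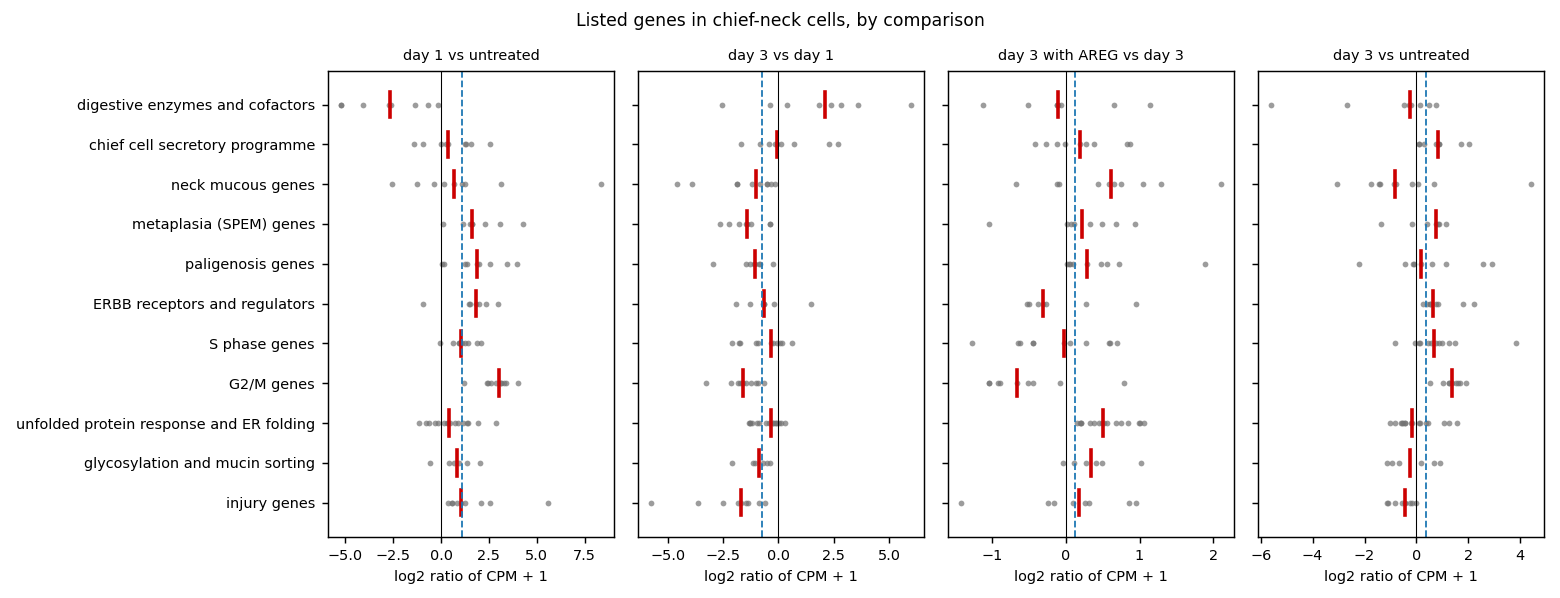
Log2 ratios of CPM + 1 in chief-neck cells for the genes of 11 lists (1 grey point per gene that reached 10 UMIs in the pair), with the list median in red and the median over all genes as a dashed blue line, for the 4 library pairs. Digestive enzymes have medians of −2.65 at day 1 against untreated mice and 2.10 at day 3 against day 1, in pairs that share the day 1 library. The G2/M points at day 1 come largely from 1 cell.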

How the data were processed

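Transcripts of single mouse gastric corpus cells were counted per gene and cell barcode in 4 libraries, 1 per group. Raw UMI counts, not normalized, were deposited by the authors, and the submitters' processing notes name the build mm39 (GRCm39). Which aligner and counter were used is not given in the sources used here. Barcodes under 500 UMIs, under 200 genes or over 50% mitochondrial UMIs were dropped, and the 3 classes were cut by gene levels as described. No doublet caller was run, and free RNA was not subtracted but read from barcodes under 50 UMIs. UMIs were summed over the cells of a class and library and converted to CPM, and differences are log2 ratios of CPM + 1. Library pairs were described with at least 30 chief-neck cells a side. Named genes are the 10 highest and 10 lowest ratios of genes at 50 CPM or more in either side, without mitochondrial, ribosomal protein, haemoglobin, immunoglobulin and unnamed genes and the 6 genes of the rule, and any member of 22 lists of 207 genes. A gene that the rule named is not reported here. The cells and lists were chosen with earlier results of these data known. Shares carry exact Clopper-Pearson intervals, share ratios Katz intervals and count ratios exact conditional intervals, all at 95% and for counting error only. A level of 0 was bounded by 3 UMIs. To compare depths, cells were thinned to 500 or 1000 UMIs, and at 1000 UMIs 2954 untreated, 1098 day 1, 2545 AREG day 3 and 1580 day 3 cells were left out. Alternatives changed the gates, the cell filters, the pseudocount, the minimum level, the scaling and the weight of single cells, and scripts were tested on simulated data. Python 3.11.15 was used with numpy 2.4.6, pandas 2.3.3, scipy 1.17.1 and matplotlib 3.10.9.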

Additional observations from a re-analysis of the deposited data

How the results depend on the processing

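With 1 library per group, differences between libraries cannot be told apart from differences between mice, dissociations or captures, and the 38 day 1 cells limit every value of that day. No paired analysis was possible because each group had 1 library. The 8 share ratios of chief-neck cells kept their direction under the 6 alternatives run. Those of chief cells without neck genes turned for AREG against day 3 with Chia1 and Cblif at 100 or more per 10000 (−0.24, against 0.13), and those of neck cells without chief genes turned for day 1 against untreated with cells of at least 1000 UMIs (0.01) or thinned to 1000 UMIs (0.06), against −0.52. Among filtered cells, the day 3 against untreated log2 ratio was −0.74 with Chia1 and Cblif at 100 or more per 10000. Among chief-gated cells, cells of at least 1000 UMIs gave 2.09 (day 1 against untreated) and 1.2 (day 3 against untreated), leaving out cells above 3 times the median UMIs gave 1.29 (day 1 against untreated), and the limit of 100 per 10000 gave −1.16 (day 3 against day 1) and 0.65 (day 3 against untreated). Counts of genes past 2-fold followed the minimum level. At 20 CPM they were 4100 (day 1 against untreated), 3118 (day 3 against day 1), 297 (AREG against day 3), 1055 (day 3 against untreated) and 2131 (chief-neck against chief cells without neck genes), and at 10 UMIs they were 4417, 3326, 972, 2428 and 6208 in that order. Leaving abundant genes out of the total gave 2438 (day 1 against untreated), 445 (AREG against day 3) and 1345 (day 3 against untreated). Weighting cells equally gave 296 (AREG against day 3) and 742 (day 3 against untreated), and leaving out cells above 3 times the median gave 158 and 619 for the same pairs. AREG against day 3 also gave 39 with a pseudocount of 10 CPM and 163 with neck genes at 20 or more per 10000. Of the named genes, 7 ratios reversed. Without cells above 3 times the median these were Racgap1 (−1.43, day 1 against untreated), Chga (−0.11, day 3 against day 1) and Sst (0.40, chief-neck against chief cells without neck genes). Without 1 dominant cell they were Chgb (−0.41, day 3 against untreated) and Sst (0.57). Sst was also 0.77 with cells weighted equally, and Ghrl was −1.81 in the same class comparison with neck genes at 20 or more per 10000. The cause was not tested. The alternatives for chief-gated shares, for the shares of the other 2 classes, for the class comparison and for single dominant cells were chosen after seeing the data.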
